A study of Mus musculus with 12 samples.

Results

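The stress keratin genes Krt6a, Krt6b, Krt16 and Krt17 were followed through 12 epidermal RNA libraries, 6 from WT mice and 6 from Pparg-/-epi mice, with 1 library per mouse. The genes were taken by symbol, and all 4 were among the 14533 genes of the deposited count table. All 12 mice were untreated C57BL/6 animals carrying Pparg (flox/flox). The WT siblings were Cre-/-, and the Pparg-/-epi mice were Cre+/- for a Cre recombinase driven by the keratin 14 promoter. The paper places keratin 14 in basal keratinocytes of the interfollicular and follicular epidermis, and describes the loss as reaching the whole epidermis. Deletion was not directed to dermal cells. WT mice were 3 males and 3 females, and Pparg-/-epi mice were 2 males and 4 females. Labelled ages ran from 8 to 13 weeks in both groups, but Pparg-/-epi males were 8 to 10 and females 12 to 13 weeks old. Non-lesional dorsal skin was frozen and the epidermis was scraped off into the superficial dermis. Keratinocyte markers were high in all libraries (Krt5 between 3155 and 7013 CPM, read counts relative to the library's total after edgeR's TMM scaling), and dermal fibroblast markers were present too, at a summed 1014 to 34533 CPM.

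Keratins form the intermediate filaments of epithelial cells, and a filament needs a type I and a type II keratin in equal parts. Krt16 and Krt17 encode type I keratins and Krt6a and Krt6b encode type II keratins. In healthy skin these genes are active mainly in the hair follicle, where Krt6a and Krt17 are known from the companion layer and outer root sheath, and in thickened plantar skin. They are switched on in the interfollicular epidermis after wounding, in psoriasis and in other hyperproliferative states, and are then called stress or alarm keratins. Krt5 and Krt14 are the standard pair of basal keratinocytes.

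Both pairs are neighbours in the genome, and their transcripts are alike enough to matter for counting. In mm10 (GRCm38), on the minus strand, Krt6a lies at chr15:101689928-101694305 (9 exons) and Krt6b at chr15:101676023-101680289 (9 exons), with 9638 bases between them. Krt16 lies at chr11:100246091-100248902 (8 exons) and Krt17 at chr11:100256217-100260989 (8 exons), with 7314 bases between them. The coding sequences of Krt6a and Krt6b, from the GENCODE M21 annotation, differ at 37 of 1659 aligned bases (97.8% identical), while Krt16 and Krt17 are 75.8% identical. The 75-base coding stretch with the most differences between Krt6a and Krt6b lies in exon 4 (chr15:101692484-101692558 in Krt6a and chr15:101678303-101678377 in Krt6b). It is shown because only reads over bases that differ can be assigned to 1 of the 2 genes. It runs 5′ to 3′ on the coding strand, with the 12 differing bases in capitals:

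Krt6a: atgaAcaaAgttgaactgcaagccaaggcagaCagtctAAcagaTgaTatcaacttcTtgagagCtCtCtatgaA

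Krt6b: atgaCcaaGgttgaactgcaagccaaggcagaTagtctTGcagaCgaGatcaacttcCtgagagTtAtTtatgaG

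A stretch of exon 1 (chr15:101694141-101694215 in Krt6a and chr15:101680116-101680190 in Krt6b) shows the opposite case, with no difference:

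Krt6a and Krt6b: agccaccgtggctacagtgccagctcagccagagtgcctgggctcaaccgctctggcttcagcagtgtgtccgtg

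Of 1016 coding stretches of 75 bases within an exon, 541 (53.2%) were identical in both genes. Over whole transcripts, 42.3% of the 75-base stretches of Krt6a, 39.6% of those of Krt6b and 28.9% of those of Krt16 also occurred in a gene at another locus, against 0% for Krt17, 5.18% for Krt5 and 5.91% for Krt14. For Krt16 the main partner was the pseudogene Gm11597 (22.5%), which was not analysed here. The authors sequenced read pairs of 75 bases and removed those that mapped to more than 1 place, so the counts of Krt6a, Krt6b and Krt16 leave out reads that the counts of Krt17 keep. A pair can be placed if either of its reads covers a difference, so the percentages of single stretches are not the share of pairs removed. That share is unknown, and values of these 3 genes are uncertain to that extent.

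Total counts ranged from 10120840 to 18851255 per library, and 3 counts, taken as the detection floor, were worth 0.156 to 0.32 CPM. Pparg itself had 5 to 269 counts in WT and 16 to 107 in Pparg-/-epi libraries (log2 fold change -0.10, edgeR adjusted p = 0.949). Counts were summed over the whole gene while the loxP sites flank exons 1 and 2 alone, so they do not check the genotype. WT replicate 2 stood apart: it held the highest summed inner root sheath (2149 CPM, at most 524 in the other WT libraries), sebaceous (4054 against at most 2304) and leukocyte markers (2054 against at most 1082) of the WT group and the lowest suprabasal keratins of all libraries (11822 CPM). Fold changes of the stress keratins are given with and without it. Library names carry 6 different prefixes whose meaning is not given in the sources used here; 4 WT libraries share a prefix, and 1 prefix is in both groups (WT replicate 2 and Pparg-/-epi replicate 10), so prefix and genotype cannot be told apart. In RNA from whole scrapings, fewer cells of a type and less RNA per cell cannot be told apart.

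Of the 4 stress keratins, Krt6a, Krt16 and Krt17 were altered in Pparg-/-epi mice and all 3 rose, while Krt6b had a fold change of similar size that did not pass the test used here. By edgeR's likelihood ratio test, which the authors used, all 4 were altered. Genes whose log2 fold change reached 0.6 in either direction, with an adjusted p under 0.05, count as altered here, from edgeR's quasi-likelihood test with Benjamini-Hochberg adjustment over all 14533 genes. With 1 library per mouse, the p-values measure the spread between mice. By the same rule 10.3% of all genes were altered and 5.19% were altered and higher in Pparg-/-epi mice. The median log2 fold change was 2.63 over the 4 genes and -0.01 over all genes.

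Krt17, the most abundant of the 4, was at 760, 1544, 563, 432, 741 and 704 CPM in WT replicates 1 to 6 and at 2704, 2659, 3701, 2270, 2366 and 2742 CPM in Pparg-/-epi replicates 7 to 12. All Pparg-/-epi libraries were above all WT libraries, and WT replicate 2 stood above the other WT libraries, none of which passed 760 CPM. Krt17 rose 3.47-fold (log2 fold change 1.79, standard error (SE) 0.27, adjusted p = 0.00117). Without WT replicate 2 its log2 fold change was 2.08 (adjusted p = 3.18e-05); the same 3 members were then altered and higher, as were 8.97% of all genes.

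Krt16, the type I partner of the Krt6 proteins in activated epidermis, was at 52.8, 12.2, 146, 12.4, 75.9 and 19.5 CPM in WT and at 475, 266, 627, 299, 382 and 354 CPM in Pparg-/-epi replicates, in the same order. The groups did not overlap, and the WT libraries spanned a 12-fold range against a 2.36-fold range among Pparg-/-epi libraries. Krt16 rose 7.56-fold (log2 fold change 2.92, SE 0.59, adjusted p = 0.006), the largest fold change of the 3 altered members with all libraries. Its log2 fold change was 2.70 without WT replicate 2 (adjusted p = 0.00476), which is below that of Krt6a in the same fit, and 3.54 without WT replicate 3 (adjusted p = 0.00185).

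Krt6a was at 30, 194, 56, 10.9, 94 and 21.1 CPM in WT and at 467, 409, 727, 199, 278 and 255 CPM in Pparg-/-epi replicates. The groups came close: WT replicate 2, at 194 CPM, lay just under Pparg-/-epi replicate 10, at 199 CPM, and when libraries were scaled by total counts alone their order turned (216 and 191 CPM). Krt6a rose 5.75-fold (log2 fold change 2.52, SE 0.62, adjusted p = 0.016). Without WT replicate 2 its log2 fold change was 3.19 (SE 0.54, adjusted p = 0.00162).

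Krt6b had the widest spread in WT mice, at 12.4, 0.159, 91.3, 2.02, 34.1 and 1.7 CPM, a 574-fold range, against 148, 70.4, 356, 89, 162 and 105 CPM in Pparg-/-epi mice. WT replicate 3 exceeded Pparg-/-epi replicates 8 and 10, so 4 of 6 Pparg-/-epi libraries were above all WT libraries. The log2 fold change was 2.74 with a standard error of 1.01 (adjusted p = 0.0892), which did not pass the quasi-likelihood test. Krt6b did pass with the likelihood ratio test that the authors used and with DESeq2. The call turned with the fit: with sex as a covariate all 4 members were altered and higher (4.95% of all genes were), Krt6b with a log2 fold change of 4.75 and adjusted p = 0.0414, and without WT replicate 3 its log2 fold change was 3.96 (adjusted p = 0.0218). It was 2.46 without WT replicate 2 (adjusted p = 0.0631). With Krt6a and Krt6b counted as 1 feature, an alternative chosen after seeing the data, the log2 fold change came to 2.58 (adjusted p = 0.0139), and to 2.94 without WT replicate 2 (adjusted p = 0.00586).

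**Figure D1:**
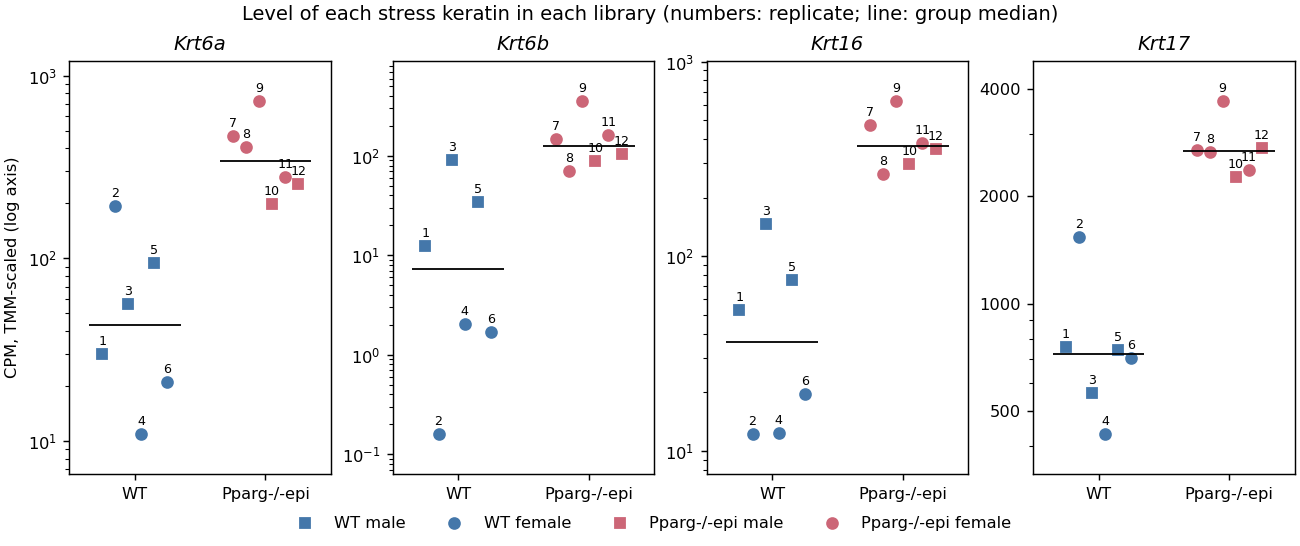
CPM of Krt6a, Krt6b, Krt16 and Krt17 on log axes, 1 point per library with its replicate number, squares for males and circles for females, and the median of each group of 6 as a line. Krt17 and Krt16 separate the groups, WT replicate 2 reaches 194 CPM for Krt6a beside 199 CPM in Pparg-/-epi replicate 10, and Krt6b in WT runs from 0.159 to 91.3 CPM.

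All 6 Pparg-/-epi libraries were above all 6 WT libraries for 3 of the 4 members, as for 3.95% of all genes. Pparg-/-epi replicate 9 was the highest library for each of the 4. In the same library the sum of sebaceous gland and duct markers was the highest of its group (4003 CPM, group range 2188 to 4003), 87.8% of it the duct keratin Krt79, without which the sum was 490 CPM (group range 308 to 589). The sum of companion layer, outer root sheath and bulge markers was the lowest (1612 CPM, group range 1612 to 2274), while inner root sheath (487 CPM, group range 162 to 4614) and dermal fibroblast markers (7858 CPM, group range 5324 to 11169) were in between. The part of these in its stress keratin values was not tested. Together the 4 genes held 0.0953% ± 0.0514 (SD, n = 6) of all counts in WT and 0.371% ± 0.0991 (SD, n = 6) in Pparg-/-epi libraries, with 0.195% in WT replicate 2 and 0.0451 to 0.0904% in the other WT libraries.

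Per transcript length, Krt17 was the highest of the family in every library. In RPKM (CPM per kilobase of the length in the deposited table) WT means were 523 ± 258 for Krt17, 34 ± 33.4 for Krt16, 30 ± 30.4 for Krt6a and 10.6 ± 15.9 for Krt6b, and Pparg-/-epi means were 1814 ± 336, 256 ± 84.6, 172 ± 85.6 and 69.3 ± 46.6 (SD, n = 6 each). Krt17 exceeded Krt16 in 6 of 6 libraries of both groups, by a median 25.5-fold in WT and 7.14-fold in Pparg-/-epi. Krt16 exceeded Krt6a in 5 of 6 libraries of each group, so this pair of neighbours in the order did not differ in every library. Krt6a exceeded Krt6b in 5 of 6 WT libraries, all but replicate 3, and in 6 of 6 Pparg-/-epi libraries.

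Summed per length, the type II members were below the type I members in every library, Krt17 making up most of the type I sum. Krt6a and Krt6b together had 0.0195 to 0.141 times the RPKM of Krt16 and Krt17 together in WT (median 0.0593) and 0.0756 to 0.169 times in Pparg-/-epi libraries (median 0.109). The removal of reads shared by Krt6a and Krt6b lowers this ratio by an unknown amount. Against the standard pair, Krt17 stayed below Krt5 and below Krt14 per length in all 12 libraries, with Krt14 a median 3.56 times Krt17 in WT and 1.69 times in Pparg-/-epi.

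The share of Krt6b in the counts of both Krt6 genes varied widely between mice. Krt6b made up 29.3%, 0.082%, 62%, 15.6%, 26.7% and 7.44% of the counts of both genes in WT replicates 1 to 6 and 24.1%, 14.7%, 32.9%, 30.9%, 36.8% and 29.1% in Pparg-/-epi replicates 7 to 12. The exact 95% binomial intervals, which cover counting error only, ran from 0.0169 to 0.239% in WT replicate 2 and from 59.3 to 64.5% in WT replicate 3. WT replicate 2 held 3 counts of Krt6b, at the detection floor, beside 3656 counts of Krt6a. In that library, therefore, counts that reached Krt6b from Krt6a reads were at most those 3. The share averaged 23.5% ± 21.9 (SD, n = 6) in WT and 28.1% ± 7.79 (SD, n = 6) in Pparg-/-epi mice.

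**Figure D2:**
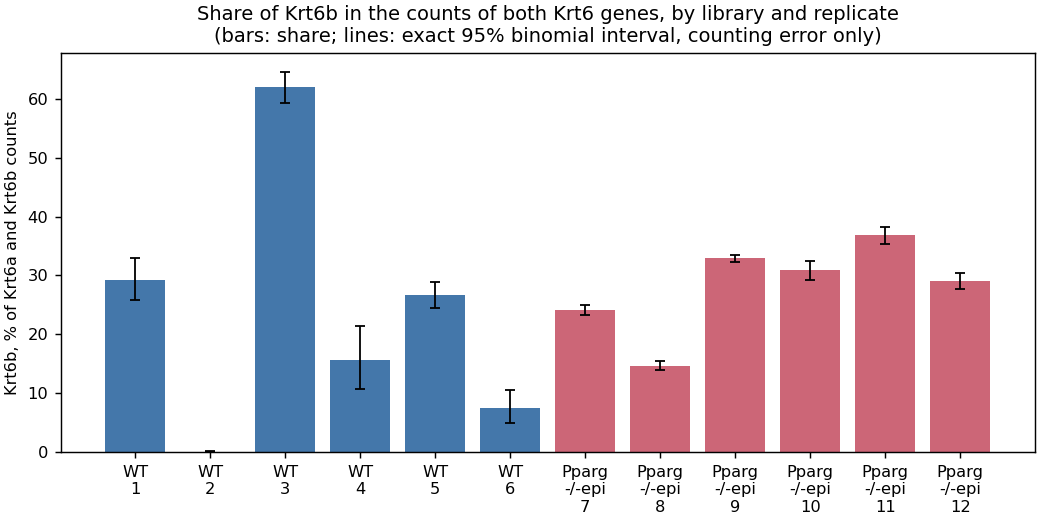
Share of Krt6b in the summed counts of Krt6a and Krt6b, 1 bar per library with its exact 95% binomial interval. WT libraries run from 0.082% in replicate 2 to 62% in replicate 3, and Pparg-/-epi libraries from 14.7 to 36.8%.

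The ratio to a basal keratin within the same library asks how each stress keratin moved relative to basal keratinocyte RNA, and needs no scaling between libraries. The choice of reference mattered, because Krt5 and Krt14 moved differently. Krt5 had a log2 fold change of 0.14 (SE 0.20, adjusted p = 0.69), and Krt14 rose by 0.98 (SE 0.20, adjusted p = 0.00559), from 1585 to 3767 CPM in WT to 4301 to 5691 CPM in Pparg-/-epi libraries. Ratios are given as counts in percent of the reference counts, and as differences of mean log2 ratios with exact permutation tests over all 924 assignments of libraries to 2 groups of 6 (two-sided, unadjusted for the 8 ratios, smallest possible p = 0.00216).

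Krt16 counts were 0.304, 0.57 and 2.58% (lowest, median, highest) of Krt5 counts in WT and 4.52, 6.09 and 10.5% in Pparg-/-epi libraries. This was the only 1 of the 8 ratios whose groups did not overlap, with a log2 difference of 3.29 (exact permutation p = 0.00216). The share of all genes whose ratio to Krt5 or Krt14 separates the groups was not counted. Krt17 counts were 9.92, 11.2 and 48.9% of Krt5 counts in WT and 34.3, 45.8 and 61.8% in Pparg-/-epi libraries, a log2 difference of 1.71 (exact permutation p = 0.00866). The 48.9% belonged to WT replicate 2.

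Krt6a counts were 0.268, 0.708 and 6.15% of Krt5 counts in WT and 3.01, 6.51 and 12.1% in Pparg-/-epi libraries, a log2 difference of 2.83 (exact permutation p = 0.00866). Krt6b counts were 0.00505, 0.113 and 1.61% of Krt5 counts in WT and 1.35, 2.1 and 5.94% in Pparg-/-epi libraries, a log2 difference of 4.43 (exact permutation p = 0.00866). The WT high of Krt6a was again replicate 2 and that of Krt6b replicate 3. The Krt6b difference was 3.60 without WT replicate 2, where Krt6b is at the detection floor (exact permutation p = 0.00866), and 5.22 without WT replicate 3 (p = 0.00216).

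Relative to Krt14 every difference was smaller. The log2 differences were 1.98 for Krt6a (exact permutation p = 0.0238), 3.59 for Krt6b (p = 0.0195), 2.44 for Krt16 (p = 0.00433) and 0.86 for Krt17 (p = 0.0195). That of Krt6b was 2.67 without WT replicate 2 (exact permutation p = 0.026) and 4.41 without WT replicate 3 (p = 0.00216). Krt17 counts went from a median of 25.7% of Krt14 counts in WT to 53.8% in Pparg-/-epi libraries, and WT replicate 2, at 76.9%, was above all Pparg-/-epi libraries (41.5 to 65%).

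The edgeR fit with the reference count as library size gave adjusted p-values over the other 14532 genes. Scaled to Krt5, 1.27% of genes were altered and higher, among them Krt16 (log2 fold change 2.90, adjusted p = 0.00323) and Krt17 (1.45, adjusted p = 0.0364). Krt6a (2.10, adjusted p = 0.0894) and Krt6b (2.73, adjusted p = 0.103) did not pass, and without WT replicate 2 they did (3.29, adjusted p = 0.000402, and 2.47, adjusted p = 0.0479). Scaled to Krt14, 0.929% of genes were altered and higher, among them Krt6a (1.41, adjusted p = 0.029), Krt16 (1.97, adjusted p = 0.00142) and Krt17 (0.71, adjusted p = 0.0417). Krt6b was at 1.74 (adjusted p = 0.0742), and at 1.47 without WT replicate 2 (adjusted p = 0.0492). The median log2 fold change of all genes was -0.24 on the Krt5 scale and -1.09 on the Krt14 scale.

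**Figure D3:**
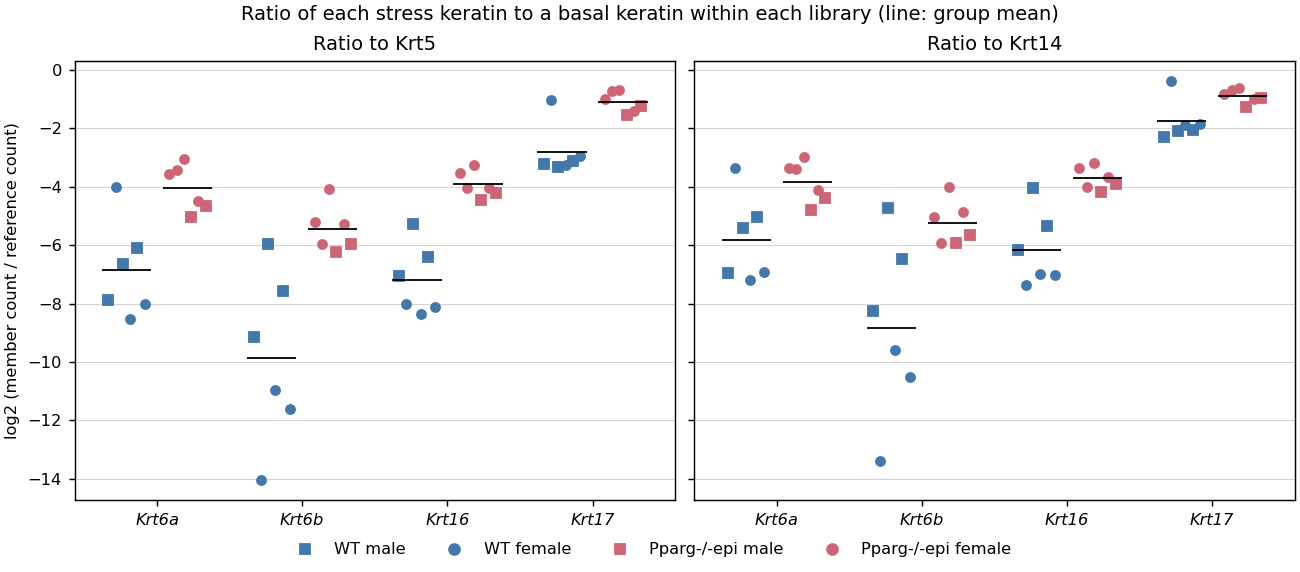
log2 ratio of each stress keratin's count to the count of Krt5 (left) and Krt14 (right), 1 point per library with squares for males and circles for females, and the group mean as a line. Only Krt16 against Krt5 separates the groups, and WT replicate 2 is the high WT point of Krt6a and Krt17 and the low WT point of Krt6b.

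Between members, no genotype difference in the ratio of any of the 6 pairs passed the exact permutation test (two-sided, unadjusted). The nearest were Krt17 to Krt6a, with a log2 ratio 1.12 lower in Pparg-/-epi mice (KO minus WT -1.12, exact permutation p = 0.0541), and Krt17 to Krt16 (-1.57, p = 0.0584). Krt17 counts were 385, 2466 and 12650% (lowest, median, highest) of Krt16 counts in WT and 569, 690 and 999% in Pparg-/-epi libraries. The ratio of Krt16 to Krt6a differed by 0.46 (exact permutation p = 0.777), and by -0.27 without WT replicate 2. That of Krt6b to Krt6a differed by 1.60 (exact permutation p = 0.387), by 0.20 without WT replicate 2 and by 2.35 without WT replicate 3. Leaving out 1 WT library ended this for some pairs: Krt17 to Krt6a passed without replicate 2, 3 or 5 (-1.33, -1.26 and -1.33, exact permutation p = 0.0281, 0.0455 and 0.0281), Krt17 to Krt16 without replicate 3 or 5 (-2.06 and -1.80, p = 0.00433 and 0.0433), and without replicate 3 so did Krt16 to Krt6b (-1.55, p = 0.039) and Krt17 to Krt6b (-3.61, p = 0.00866). As a description, the SD of the 6 log2 ratios was 0.31 to 0.67 among Pparg-/-epi libraries and 1.07 to 3.72 among WT libraries.

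In Pparg-/-epi mice r was above 0 for all 6 pairs of members, from 0.67 to 0.96, and in WT it ran from -0.51 to 0.96; whether the r values differ was not tested. Krt6b and Krt16, a type II and a type I gene on different chromosomes, followed each other in both groups of 6 libraries, with r = 0.96 and rho = 0.94 in WT (exact permutation p = 0.00972 and 0.0167, adjusted over 12 relations 0.0583 and 0.1) and r = 0.96 and rho = 0.94 in Pparg-/-epi (p = 0.00278 and 0.0167, adjusted 0.0333 and 0.1). Without the 2 libraries farthest from the median of Krt6b, r was 0.96 in WT and 0.80 in Pparg-/-epi. Every WT male was above every WT female for both genes, so the WT relation and the sex split cannot be told apart. The relation within 1 sex was not tested. Values were log2 CPM, and r in Pparg-/-epi was the only 1 of the 12 with an adjusted p under 0.05. Without any 1 of the 6 Pparg-/-epi libraries, r was 0.90 to 0.99 and the adjusted p 0.0583 to 0.211; 5 libraries allow no exact permutation p below 0.00833.

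Krt6a and Krt17 had r = 0.81 and rho = 0.71 in WT (exact permutation p = 0.0528 and 0.136, adjusted 0.158 and 0.42) and r = 0.87 and rho = 0.66 in Pparg-/-epi (p = 0.0264 and 0.175, adjusted 0.106 and 0.42). Without the 2 libraries farthest from the median of Krt6a, r was -0.17 in WT and 0.34 in Pparg-/-epi, so these relations rest on those libraries (WT replicates 2 and 4, Pparg-/-epi replicates 9 and 10). Krt6a and Krt6b, for all their shared sequence, had r = -0.04 and rho = 0.03 in WT (exact permutation p = 0.932 and 1, adjusted 0.932 and 1), and r = 0.86 without WT replicate 2 (0.81 without the 2 farthest). The same pair had r = 0.67 and rho = 0.54 in Pparg-/-epi (exact permutation p = 0.136 and 0.297, adjusted 0.204 and 0.51), and r = -0.15 without the 2 farthest. In Pparg-/-epi, Krt6a and Krt16 had r = 0.72 (rho = 0.66), Krt6b and Krt17 r = 0.73 (rho = 0.49) and Krt16 and Krt17 r = 0.76 (rho = 0.60), with exact permutation p-values of r of 0.11, 0.108 and 0.0778 (adjusted 0.188, 0.188 and 0.187). In WT the same pairs had r = 0.20 (rho = 0.09), -0.51 (rho = -0.37) and -0.26 (rho = -0.26), with exact permutation p = 0.697, 0.293 and 0.664 (adjusted 0.761, 0.391 and 0.761). Replicate 2 set these WT values: with it left out, r was 0.88, 0.24 and 0.39.

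**Figure D4:**
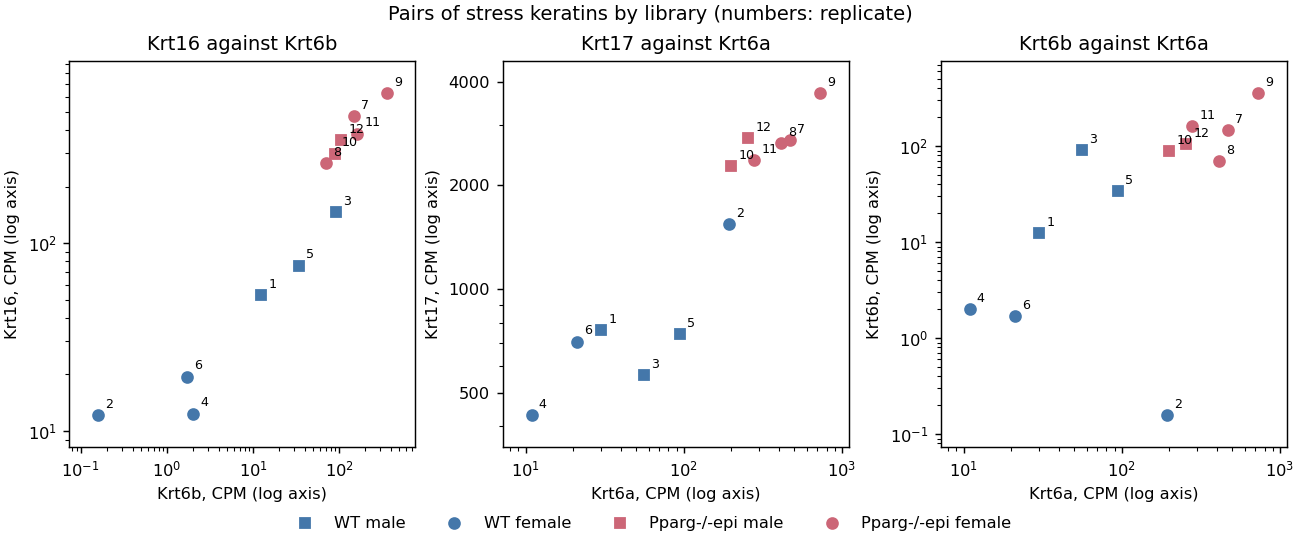
CPM of 3 pairs of stress keratins on log axes, 1 point per library with its replicate number, squares for males and circles for females. Krt16 follows Krt6b through both groups, and WT replicate 2, with 194 CPM of Krt6a and 0.159 CPM of Krt6b, lies far from the other libraries in the last panel.

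In WT mice, the levels of Krt16 and Krt6b split by sex, but edgeR's test of sex within this group did not pass. The log2 difference of WT males from WT females was 2.64 for Krt16 (SE 0.41, edgeR adjusted p = 0.116). For Krt6b it was 5.18 (SE 0.94, adjusted p = 0.204). Krt16 was at 52.8, 146 and 75.9 CPM in the 3 WT males and at 12.2, 12.4 and 19.5 CPM in the 3 WT females, and Krt6b at 12.4, 91.3 and 34.1 CPM against 0.159, 2.02 and 1.7 CPM. Males were above all females for both genes, as for 5.24% of all genes, and 3 against 3 libraries allow no exact permutation p below 0.1, the value both gave. Krt5 split the same way by less (5673 to 7013 CPM in males, 3155 to 5481 in females), while Krt6a (30 to 94 against 10.9 to 194 CPM) and Krt17 (563 to 760 against 432 to 1544 CPM) overlapped. RIN, the RNA integrity number, ran from 5.9 to 7.4 in WT males and from 6.2 to 8.6 in WT females, and its part in the split was not tested.

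No such split was seen in Pparg-/-epi mice, where Krt16 was at 299 and 354 CPM in the 2 males and at 266 to 627 CPM in the 4 females, and Krt6b at 89 and 105 CPM against 70.4 to 356 CPM. Krt6a was lower in the 2 males (199 and 255 CPM) than in the 4 females (278 to 727 CPM). This difference did not pass edgeR's test of sex within the group (log2 -1.05, SE 0.94, adjusted p = 0.586). The share of all genes with such an order was not counted. Sex and age cannot be told apart in this group, since all of its females were older than its males. In a fit with a genotype by sex interaction, Krt16 had a log2 fold change between genotypes of 4.90 in females (SE 0.44, adjusted p = 0.000705) and 1.84 in males (SE 0.42, adjusted p = 0.0569). For Krt6b these were 7.19 (SE 0.99, adjusted p = 0.00305) and 1.08 (SE 0.81, adjusted p = 0.552). Krt17 had 1.68 (adjusted p = 0.023) and 1.87 (adjusted p = 0.0543), and Krt6a 2.64 (adjusted p = 0.0888) and 1.92 (adjusted p = 0.328). Thus 3 of 4 members were altered and higher in females, where 2.89% of all genes were, and 0 of 4 in males, where 0.908% were. The count depends on the fit: with the 7 females fitted alone, Krt6b (adjusted p = 0.0122) and Krt16 passed, while Krt17 (1.68, adjusted p = 0.0685) and Krt6a (2.65, adjusted p = 0.151) did not.

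The difference between the sexes itself did not pass in the test across all genes. The interaction was -3.06 for Krt16 (SE 0.59, unadjusted p = 0.000295, adjusted p = 0.895) and -6.11 for Krt6b (SE 1.28, unadjusted p = 0.000594, adjusted p = 0.895), the genes with rank 4 and rank 7 by p among the 14533. It was -0.72 for Krt6a (adjusted p = 0.951) and 0.19 for Krt17 (adjusted p = 0.974). No gene was called (0% of 14533) by this quasi-likelihood test, and 741 had an unadjusted p under 0.05. Without WT replicate 2, an alternative added after seeing the data, the interaction was -2.94 for Krt6a, -5.54 for Krt6b and -2.93 for Krt16, each with adjusted p = 0.263, and -0.46 for Krt17 (adjusted p = 0.551).

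**Figure D5:**
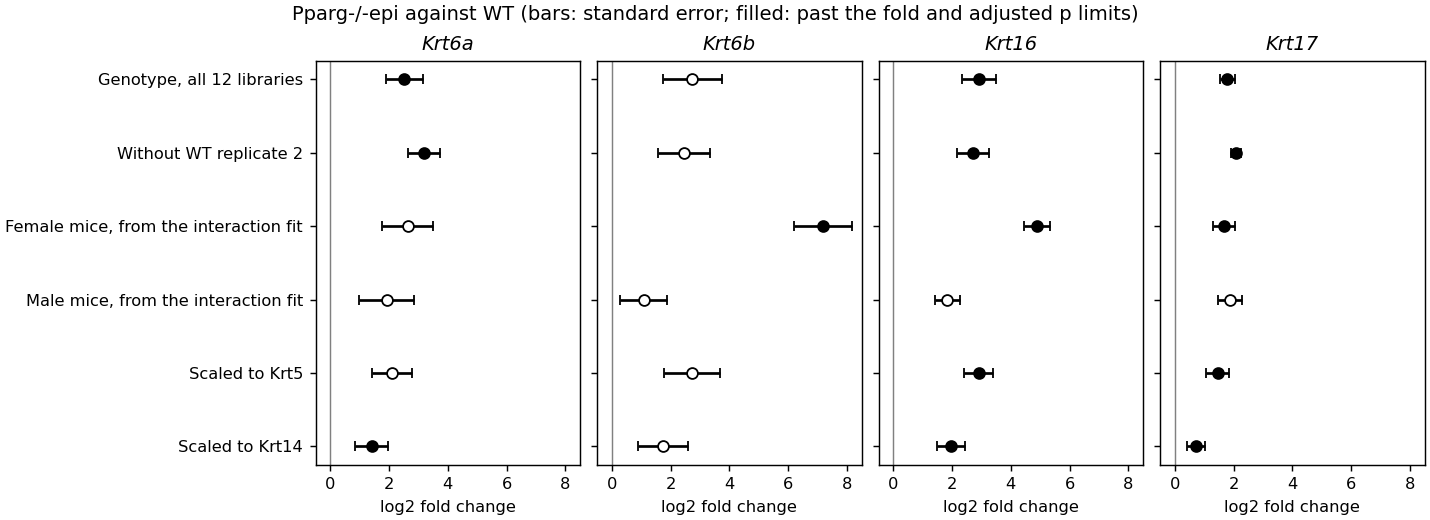
log2 fold change of each stress keratin between Pparg-/-epi and WT mice with its standard error, in the fit on all 12 libraries, without WT replicate 2, in each sex and with Krt5 or Krt14 counts as library size. Filled points pass both limits. Krt16 and Krt6b lie at 4.90 and 7.19 in females and at 1.84 and 1.08 in males, and all 4 genes lie lower on the Krt14 scale than on the Krt5 scale.

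The genes that varied most like each member after subtraction of the group means, over 12 libraries and 1 r per gene, differed between Krt17, Krt6a and the Krt6b and Krt16 pair. They are the largest r among 13800 genes compared. Picking the largest of so many gives high values even for unrelated genes, and how high was not tested. Krt6b and Krt16 were each other's closest gene (r = 0.95). Both also had BC100530 (r = 0.92 with each), Stfa1 (0.90 and 0.89) and Rab5c, a GTPase of early endosomes (0.91 and 0.92), among their closest 5. Stfa1 encodes a stefin, an inhibitor of cysteine proteases from a family of near-identical genes, so its counts are uncertain. Shared sequence was not measured for Stfa1 or BC100530, so counts of BC100530 may be uncertain too. BC100530 rose from 33.3 ± 32.5 to 370 ± 64.3 CPM (SD, n = 6 each, log2 fold change 3.48, adjusted p = 0.00281) and Stfa1 from 3.83 ± 3.87 to 24.6 ± 5.14 CPM (2.72, adjusted p = 0.00836), while Rab5c was not altered (-0.09, adjusted p = 0.552).

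Krt17 had Tagln2, an actin-binding protein (r = 0.95), Stra6, a retinol transporter (0.95), Serinc2 (0.95), Galnt6, a glycosyltransferase (0.95), and Itgb6, an integrin subunit induced in wounds (0.94), as its closest genes. Of these, Stra6 rose from 1.01 ± 1.02 to 23.3 ± 8.31 CPM (SD, n = 6 each, log2 fold change 4.46, adjusted p = 0.000345, and 5.17 without WT replicate 2) and Galnt6 from 12.1 ± 4.2 to 59.5 ± 6.48 CPM (2.30, adjusted p = 3.32e-05). Krt6a was the gene with rank 157 for Krt17 (r = 0.82), and Krt16 had r = -0.15 with it. Krt6a had Relt, a TNF receptor family member (r = 0.92), Cntn2 (0.90), Pxn, the focal adhesion protein paxillin (0.89), Tcf7l2, a transcription factor of the Wnt pathway (0.89), and St3gal5 (0.89) as its closest genes, and none of these 5 was altered with all libraries (without WT replicate 2, Cntn2 was, at 3.98, adjusted p = 0.00814). These r values are descriptions over libraries that share WT replicate 2. Those of Krt6b and Krt16 also hold the split of both genes by sex in WT.

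Along the chromosomes, most of the nearest genes in the table were keratins too, taken here by position. On chromosome 11, Krt14 and Krt42, a type I keratin gene, flank Krt16 and Krt17. Krt42 rose from 0.352 ± 0.143 to 2.5 ± 1.82 CPM (SD, n = 6 each, log2 fold change 2.81, adjusted p = 0.00411), with its WT level near the detection floor. Krt15, the next gene beyond Krt14 and a basal and bulge keratin, fell from 3370 ± 817 to 1011 ± 365 CPM (log2 fold change -1.74, adjusted p = 0.00106). On chromosome 15, Krt75, a companion layer keratin beside Krt6b, was at 40.9 ± 23.2 and 17 ± 20.8 CPM (-1.26, adjusted p = 0.22, and -2.20 with adjusted p = 0.0201 without Pparg-/-epi replicate 8), and Krt5 beside Krt6a did not pass the test. Of 44 keratin genes in the table, 8 were altered and higher, 2 altered and lower and 34 not altered. The 44 include the stress keratins, and 5.19% of all genes were altered and higher.

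Among regulators known to act on stress keratins, 21 of 24 had a fold change above 0, and 7 rose past both limits. Of all genes, 5.19% did so, and the median log2 fold change of all genes was -0.01. The list held Nrf2, AP-1, NF-kB, Stat3 and Gli factors, the EGF receptor with its ligands, and cytokines with their receptors, of which 7 were altered and higher, 1 altered and lower and 16 not altered (median log2 fold change 0.57). Il1f6, the cytokine IL-36 alpha, rose most (from 2.82 ± 2.94 to 42 ± 9.59 CPM, SD, n = 6 each, log2 fold change 3.90, edgeR adjusted p = 0.000797, and 4.68 without WT replicate 1). Of the 7, Nfkbiz and Tnf, named here for this, lost their call in 3 and 8 of 12 fits with 1 library left out. The AP-1 subunit Fosl1 was up by 2.32 (log2, adjusted p = 0.0181), but Pparg-/-epi replicate 12 carried much of this: the group ran from 6.79 to 79.4 CPM with a median of 12.7, WT reached 7.22 CPM, and without that library the value was 1.31 (adjusted p = 0.0108). Hbegf, an EGF receptor ligand, was up by 2.29 (adjusted p = 0.00175). Btc, another ligand of that receptor, fell by 1.63 (adjusted p = 0.00344). Stat3 was at 160 and 214 CPM (0.42, adjusted p = 0.0639) and Il22ra1, a receptor chain for IL-22, at 167 and 148 CPM (-0.18, adjusted p = 0.387).

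Wound and psoriasiform keratinocyte genes were mostly higher in Pparg-/-epi mice. Of 12 genes, 8 were altered and higher, 0 lower and 4 not altered (median log2 fold change 2.62), and without WT replicate 2, 10 were altered and higher. The shares of all genes altered and higher were 5.19% with all libraries and 8.97% without WT replicate 2. This list, like the others, was chosen with earlier results of these data known, so the comparison is a description and no test. Sprr1b and Sprr2d, cornified envelope precursors, rose by 3.65 (adjusted p = 0.00286) and 3.24 (adjusted p = 0.00482) on the log2 scale, Klk6, a serine protease, by 2.99 (adjusted p = 0.00291) and Lcn2, an iron-carrier binding antimicrobial protein, by 2.80 (adjusted p = 0.0106). With 1 library left out these moved most to 4.26 for Sprr1b and 3.89 for Sprr2d (without WT replicate 3) and to 3.40 for Lcn2 (without WT replicate 2). Sprr1a resembled Krt6a and Krt17 in WT replicate 2, where it reached 1484 CPM, and its log2 fold change was 1.58 with all libraries (adjusted p = 0.129) and 2.97 without that library (adjusted p = 2.41e-05). Itga5 was at 13.3 and 25.2 CPM (0.92, adjusted p = 0.0644, and 1.18 with adjusted p = 0.00834 without WT replicate 2).

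Of 14 genes for keratin-binding and linker proteins, 0 were altered by edgeR's quasi-likelihood test and 0 by its likelihood ratio test, 3 had an unadjusted p under 0.05, and the median log2 fold change was -0.18. Dsp, the desmosomal plaque protein desmoplakin that anchors keratin filaments, was at 5273 and 5267 CPM (adjusted p = 0.997), and Pkp1, a plakophilin of the same plaque, at 1478 and 1660 CPM (0.17, adjusted p = 0.464). Of 10 proliferation genes, 8 were altered and higher (median log2 fold change 1.06), against 5.19% of all genes. Mki67 was up by 1.46 (adjusted p = 0.00717) and Bub1 by 1.24 (adjusted p = 0.00704). Pcna (61.7 and 66.3 CPM, 0.10, adjusted p = 0.594) and Mcm5 (24.5 and 35.2 CPM, 0.53, adjusted p = 0.0724, and 0.62 with adjusted p = 0.0484 without WT replicate 5) did not pass.

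Among the other keratin lists, 1 of 3 basal keratins rose (Krt14) and 1 fell (Krt15), and 0 of 4 suprabasal keratins were altered by either edgeR test (2 at an unadjusted p under 0.05), with Krt10 at 18423 and 18226 CPM (-0.02, adjusted p = 0.983) and Krt77 at 6920 and 5263 CPM (-0.39, adjusted p = 0.256). Without WT replicate 2, Krt1, named after its values were seen, was altered and higher (0.79, adjusted p = 0.0455). Of 9 companion layer, outer root sheath and bulge markers, Postn rose by 2.00 (adjusted p = 0.0199), Fgf18 fell by 3.96 (adjusted p = 0.000894, and -3.34 without WT replicate 5) and Krt15 fell. Their summed level was 3138 to 4922 CPM in WT and 1612 to 2274 CPM in Pparg-/-epi libraries. Krt15, also a basal keratin, made up most of it in WT, at 2058 to 4407 CPM against 600 to 1423 CPM. Of the 9 markers, 4 had a fold change above 0. Postn was at 24.5 to 409 CPM in WT and at 432 to 1096 CPM in Pparg-/-epi libraries. The lower sum thus reflects Krt15 and not the list as a whole. None of 9 inner root sheath and 15 hair shaft markers was altered by either edgeR test (1 and 0 at an unadjusted p under 0.05), with sums of 17.2 to 2149 and 27 to 272 CPM in WT and 162 to 4614 and 38.2 to 554 CPM in Pparg-/-epi, and 3 and 9 of them were at 0 in at least 1 library. Fold changes were above 0 for all 9 inner root sheath markers (median log2 fold change 1.44). The same held for 12 of 15 hair shaft markers (median 0.81). A shift of either list as a whole was not tested. Without WT replicate 2, the inner root sheath markers Krt72 (3.61, adjusted p = 0.0301) and Tchh (3.33, adjusted p = 0.0271) were altered and higher. So were Sox9 of the companion layer, outer root sheath and bulge list (1.36, adjusted p = 0.012) and Lrig1 of the sebaceous list (1.21, adjusted p = 0.00969). Both were named after their values were seen. Of 9 sebaceous gland and duct markers in the table, 5 fell. Fa2h, a fatty acid hydroxylase, fell by 7.85 (adjusted p = 0.000915, and -8.86 without Pparg-/-epi replicate 11) and Awat1, a wax synthase, fell by 6.38 (adjusted p = 0.00563, and -5.36 without WT replicate 2). Their Pparg-/-epi medians, 0.182 and 0.123 CPM, were about at the detection floor, so the size of these falls is uncertain. Krt79, a keratin of the gland duct named after its values were seen, was higher by 2.70 (adjusted p = 0.0168), and by 3.56 without WT replicate 2.

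None of 6 dermal fibroblast, 5 adipocyte, 6 skeletal muscle, 4 melanocyte and 3 endothelial markers was altered by edgeR's quasi-likelihood test. Of these, 3 skeletal muscle markers and 0 of the others had an unadjusted p under 0.05, and the likelihood ratio test called 1 skeletal muscle marker. Fold changes were above 0 for 2 fibroblast, 1 adipocyte, 0 skeletal muscle, 4 melanocyte and 3 endothelial markers. Of 8 leukocyte markers Mcpt4, a mast cell protease, rose by 1.17 (adjusted p = 0.0189) and Cd3e, a T cell receptor chain, fell by 0.75 (adjusted p = 0.0325). The Cd3e call was lost in 8 of 12 fits with 1 library left out (WT replicates 3, 4 and 5 and Pparg-/-epi replicates 7, 8, 9, 11 and 12, adjusted p up to 0.0783), and the Mcpt4 call in 0. Summed levels in WT and Pparg-/-epi libraries were 5.86 to 228 and 14.3 to 177 CPM for adipocytes, 10.7 to 9431 and 8.82 to 386 CPM for skeletal muscle, 3.52 to 38 and 10.5 to 166 CPM for melanocytes, 3.21 to 86.2 and 16.6 to 131 CPM for endothelium and 730 to 2054 and 1054 to 1275 CPM for leukocytes. The part of these cells and of the follicle in the stress keratin values was not tested.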

How the data were processed

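Dorsal epidermal scrapings of 6 WT and 6 Pparg-/-epi mice were sequenced. The authors aligned read pairs with STAR 2.5.2b to mm10, left out reads of low mapping quality or with several positions, and deposited raw counts per gene from featureCounts (Subread 1.5.1), without normalization; whether strand was used is not given in the sources used here. Of 17333 rows, 2800 were blank and left out. Libraries were mapped to mice by the labels, and for Pparg-/-epi replicates 11 and 12 by the study's list of library numbers. 

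Counts were fitted with edgeR 4.0.16 (R 4.3.3; TMM, quasi-likelihood test, genotype as the only term, no filter), checked on simulated counts. Alternatives were the likelihood ratio test, DESeq2 1.42.0, other scalings, a mean count of at least 10, covariates and left-out libraries. Ratios used a pseudocount of 0.5, relations log2 CPM with a prior count of 2 (Python 3.11.15, scipy 1.17.1), and figures matplotlib 3.10.9. Binomial intervals cover counting error only. Shared sequence was the percentage of 75-base stretches of a GENCODE M21 transcript found in a gene at another locus.

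The 4 members and the 16 other lists were chosen with earlier results of these data known. Named genes were the members, Krt5, Krt14, Pparg, up to 4 altered genes of each list by fold change and up to 2 others by level, and 5 genes most like each member with a mean of at least 1 CPM; not all are named.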

Additional observations from a re-analysis of the deposited data

Results flagged for a closer look

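Gaps between 1 library and the rest of its group were measured in 36 groups of 6 values (CPM of the 4 members and their ratios), many of which share libraries, and 7 were wider than Dixon's 95% limit of 0.625 of the group's range. Chance flags about 1 in 20 such groups if their values are normally distributed, which was not tested. CPM were taken on a linear scale, where a wide range can raise that share. In WT mice, Krt17 was set apart by replicate 2, with a gap of 0.705 of the range in CPM, 0.839 in the log2 ratio to Krt5 and 0.764 in the log2 ratio to Krt14. The same library was the low end of the log2 ratio of Krt16 to Krt6a, with a gap of 0.685. Krt6b in WT was set apart by replicate 3 at 91.3 CPM, with a gap of 0.627 that is barely past the limit. In Pparg-/-epi mice, replicate 9 was set apart for Krt6b (0.68, at 356 CPM) and for Krt17 (0.67, at 3701 CPM). In the log2 ratio to Krt5, the gap at the high end was 0.198 for Krt6b in WT. In Pparg-/-epi it was 0.526 for Krt6b and 0.0387 for Krt17, all within the limit.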

How the results depend on the processing

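Over 626 alternative values, 573 kept their direction and side of the threshold or stayed within their limit, 12 lost a call, 17 gained one, 7 changed sign and 17 counts moved; among the members' fold changes 76 kept their call, 2 lost it, 6 gained it and 0 changed sign. In the 7 females alone, which leave 3 against 4 mice, the log2 fold changes of Krt6a (2.65, edgeR adjusted p = 0.151) and Krt17 (1.68, adjusted p = 0.0685) lost their call, and so did the log2 ratios of Krt6a to Krt5 (3.23) and Krt14 (2.36) and of Krt17 to Krt5 (1.45) and Krt14 (0.58), while Krt6b passed (7.19, adjusted p = 0.0122), as did Krt16 to Krt6b (-2.63), Krt17 to Krt6b (-5.63) and Krt17 to Krt16 (-3.00). Krt6b also passed with the likelihood ratio test (2.71), DESeq2 (2.71), sex (4.75) or RIN (4.29) as covariate. The number of altered genes was 1493, 651 in females and 2249 without WT replicate 2. The relation of Krt6a to Krt17 in Pparg-/-epi passed with total counts alone (r = 0.93). The cause was not tested.

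With 1 library left out in turn, the log2 fold changes ran from 2.23 to 3.19 for Krt6a, 2.30 to 3.96 for Krt6b, 2.70 to 3.54 for Krt16 and 1.67 to 2.08 for Krt17, and the number of altered genes from 1116 to 2249. Log2 ratios ran from -0.27 (without WT replicate 2) to 0.80 for Krt16 to Krt6a, 0.20 to 2.35 for Krt6b to Krt6a, -1.33 to -0.87 for Krt17 to Krt6a, -1.55 to -0.48 for Krt16 to Krt6b, -3.61 to -1.53 for Krt17 to Krt6b and -2.06 to -1.06 for Krt17 to Krt16. In WT, r ran from -0.27 to 0.86 for Krt6a and Krt6b, -0.84 to 0.24 for Krt6b and Krt17 and -0.79 to 0.39 for Krt16 and Krt17, each positive without replicate 2, and from -0.18 (without replicate 4) to 0.88 for Krt6a and Krt16. In Pparg-/-epi, r ran from -0.08 (without replicate 9) to 0.87 for Krt6b and Krt17 and from 0.90 to 0.99 for Krt6b and Krt16. The interaction of Krt17 turned from 0.19 to -0.46 without WT replicate 2.

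No paired analysis was possible because the replicate numbers are running library numbers that the groups do not share, and the sources used here do not tie siblings to each other. The only name prefix found in both groups holds 1 library of each, too few for a block; whether prefixes mark litters or batches was not tested. At 3 counts, Krt6b in WT replicate 2 was at the detection floor, which limits every ratio with that value.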
